A study of Mus musculus with 31 samples.

Results

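The 38 genes described here encode proteins that copy DNA in S phase, and they were looked up by symbol. All 38 symbols matched an Ensembl mouse identifier among the 45706 identifiers of the 3 deposited count tables. The libraries came from bone marrow cells of wild type C57BL/6 mice aged 10 weeks. Mice were injected into the peritoneum with 1 mg of β-glucan, a glucose polymer of fungal cell walls, or with PBS, its solvent. The sorted long-term hematopoietic stem cells, called HSC here, were taken on day 7 after injection (3 β-glucan and 4 PBS libraries) and on day 28 (4 and 4). Multipotent progenitors (MPP), the dividing descendants of HSC, were sorted at day 28 (4 and 4). The remaining HSC libraries (4 and 4) were from animals given, besides these injections, 150 mg/kg of 5-fluorouracil (5-FU) on day 7, with sampling 14 days after the 5-FU. 5-FU poisons thymidylate synthase and kills dividing cells. Whether each library came from its own mouse is not stated, and p-values then reflect only how these libraries vary, which may be technical. The columns of the 3 count tables name neither the day nor 5-FU. The table with 3 β-glucan and 4 PBS columns was taken as day 7, the one with MPP columns as day 28 and the remaining one as the 5-FU set. In the day 28 and 5-FU tables the columns carry the letters P and G, read as PBS and β-glucan, and every direction given for β-glucan in them rests on that reading.

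Copying begins when CDC6 and CDT1 load the MCM helicase onto origins, and CDC45 and the GINS complex then switch it on. Primase and the DNA polymerases α, δ and ε synthesise the new strands, held to the template by the PCNA clamp, which the RFC complex loads. The genes were ordered into 7 role groups: licensing and helicase loading (Cdc6, Cdt1, Mcm2, Mcm3, Mcm4, Mcm5, Mcm6 and Mcm7), helicase activation (Mcm10, Cdc45, Gins1, Gins2 and Gins3), polymerases and primase (Pola1, Prim1, Pold1 and Pole), clamp and clamp loader (Pcna, Rfc2, Rfc3, Rfc4 and Rfc5), strand joining and fork protection (Fen1, Lig1, Rpa2, Clspn and Tipin), nucleotide supply and uracil removal (Rrm1, Rrm2, Tyms, Tk1, Dut and Ung), and histone supply, chromatin copying and control (Chaf1a, Chaf1b, Slbp, Uhrf1 and E2f1). In adult marrow most long-term HSC are out of the cell cycle and most progenitors divide, so these genes are commonly read as signs of S phase.

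Levels are given as CPM, counts scaled to a common library size, on TMM-scaled totals, and 37 of the 38 genes reached 1 CPM in every library. Ung was the exception, with 0.873 CPM in 1 library of the 5-FU set. The libraries held 19331663 to 39485556 counts. Together the 38 genes held 0.283 to 0.771% of a library's counts. Ordered by mean CPM per kilobase of exon, Rrm2, the small subunit of ribonucleotide reductase, was the highest gene in all 8 groups, from 198 ± 11.002 CPM per kilobase in HSC of β-glucan mice after 5-FU to 449 ± 44.5 CPM per kilobase in HSC of β-glucan mice at day 28 (SD, n = 4 each). Mcm5, Mcm3, Rrm1 and Tipin followed in HSC at both days and in MPP. Those 4 lay so close in CPM per kilobase that some neighbours did not differ beyond their spread, such as Mcm5 (139 ± 7.92) and Rrm1 (138 ± 8.5) in MPP of β-glucan mice. Ung, Chaf1a and Pole stood among the 5 lowest in each group. Tables were made separately, so levels were compared only within a table. Ranges over groups of several tables, such as that of Rrm2, are descriptions and no comparison.

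Transcripts of other blood cells were abundant. The 14 erythroid markers held 2.26 to 19.7% of counts, the 11 mature neutrophil markers 4.95 to 18.95%, and the 12 LT-HSC markers 0.0415 to 0.238%. No marker of these lists was at 0 in all libraries of a group. All 7 MPP markers were called higher in MPP than in HSC, in β-glucan and in PBS mice. The 12 LT-HSC markers were mixed, with 6 lower in MPP in both and with 3 higher in β-glucan mice and 1 in PBS mice. Their summed share at day 28 averaged 0.0463% in HSC and 0.0473% in MPP of β-glucan mice. In PBS mice it averaged 0.0596% in HSC and 0.0476% in MPP. Libraries of both sorts overlapped in each case, so this share hardly separated the sorts. These are bulk libraries, so fewer cells of a type and less RNA per cell cannot be told apart. By 2 measures some libraries stood apart from their groups. In HSC of PBS mice at day 28, library 2 lay a median of 0.213 log2 units from the others, against 0.0696 to 0.159 in the other 30 libraries. Of the 38 genes, 29 were highest of their group in it and 4 lowest. By the chi-square per gene between 2 libraries' counts it also lay far from its group (40.0 to 64.4, against 14.9 to 27.7 among the others), as did library 3 of HSC of β-glucan mice at day 28 (37.4 to 46.4, against 12.4 to 17.6) and library 4 of HSC of PBS mice after 5-FU (37.2 to 59.4, against 17.2 to 30.5). Counts of calls without them are given singly in some comparisons, and in others only within a range over fits that left out 1 library.

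Promoters of 4 genes are shown, taken from those called in the largest number of comparisons, with ties ordered by p and genes without an entry passed over. Mcm6, Dut and Ung were called together at day 28, and the runs printed for them differ in the motifs they hold. Each run covers 250 bases before to 50 after the RefSeq start (GRCm38.p6), and capitals mark an E2F core, the motif of the factors that switch on S phase genes. Mcm6 lies at chr1:128359656-128359955 on the minus strand, Dut at chr2:125247265-125247564 on the plus strand, Ung at chr5:114130185-114130484 on the plus strand and Mcm2 at chr6:88898731-88899030 on the minus strand.
Mcm6: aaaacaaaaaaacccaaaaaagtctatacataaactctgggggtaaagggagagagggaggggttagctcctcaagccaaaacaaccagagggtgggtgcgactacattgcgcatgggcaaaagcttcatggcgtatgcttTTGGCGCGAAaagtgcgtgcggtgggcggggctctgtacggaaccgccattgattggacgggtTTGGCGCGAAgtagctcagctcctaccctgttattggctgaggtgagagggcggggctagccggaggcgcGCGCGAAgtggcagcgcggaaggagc
Dut: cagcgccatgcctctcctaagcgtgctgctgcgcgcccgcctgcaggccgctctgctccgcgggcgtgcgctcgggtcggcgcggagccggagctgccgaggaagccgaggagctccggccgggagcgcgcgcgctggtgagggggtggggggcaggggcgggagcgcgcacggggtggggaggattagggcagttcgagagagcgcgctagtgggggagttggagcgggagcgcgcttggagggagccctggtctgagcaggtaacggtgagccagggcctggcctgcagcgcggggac
Ung: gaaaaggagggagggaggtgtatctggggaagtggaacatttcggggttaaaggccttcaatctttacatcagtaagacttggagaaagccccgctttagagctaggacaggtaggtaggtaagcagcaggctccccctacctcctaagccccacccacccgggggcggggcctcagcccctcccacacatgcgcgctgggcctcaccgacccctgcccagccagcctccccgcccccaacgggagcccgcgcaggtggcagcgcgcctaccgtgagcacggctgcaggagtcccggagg
Mcm2: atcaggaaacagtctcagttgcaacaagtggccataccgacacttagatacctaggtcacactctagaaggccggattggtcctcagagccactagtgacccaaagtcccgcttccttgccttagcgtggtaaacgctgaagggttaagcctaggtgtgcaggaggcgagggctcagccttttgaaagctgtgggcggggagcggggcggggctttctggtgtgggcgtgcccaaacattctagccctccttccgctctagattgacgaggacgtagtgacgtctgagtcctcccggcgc
On both strands the E2F core was searched as the letters TTCCCGC, as the variant TTGGCGC, as the variant TTGCCGC and as the variant TTCGCGC. The CCAAT box, which nuclear factor Y binds, was searched by its letters. The Mcm6 promoter held 5 E2F cores, of which 4 overlap as 2 pairs of opposite strand, and 2 CCAAT boxes. The Mcm2 promoter held 1 CCAAT box and no E2F core, and the runs of Dut and Ung held neither. The Dut run lies wholly inside the counted gene, which begins at base 125247190. Bases before the run, the first bases of the counted gene among them, were not searched, so the lack of motifs covers only this RefSeq start. In the RefSeq table, 37 promoters belonged to 32 of the 38 genes, and 64.9% of them held an E2F core, against 9.57% of all 32851 promoters. For the CCAAT box the shares were 56.8% and 37.4%. A match is a description of letters, not a binding site. Mcm4, Gins1, Gins2, Pole, Rfc2 and Tipin had no entry.

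At day 7, 3 of the 38 genes were lower in HSC of β-glucan mice than in HSC of PBS mice, 2 of the 4 polymerase genes and 1 of the 6 nucleotide genes. They were Pole, the catalytic subunit of polymerase ε, which copies the leading strand, Pola1, the catalytic subunit of polymerase α, and Rrm2. Folds were modest, and 34 of the 38 genes had a negative log2 fold change. A gene was called where edgeR's quasi-likelihood test gave a Benjamini-Hochberg adjusted p under 0.05, the adjustment running over every gene tested. By that rule 3 of the 38 genes were lower and 0 higher (7.89%), where 6.72% of all 16403 genes tested were called, 3.88% lower and 2.83% higher, so the share of the 38 was close to that of all genes. The median log2 fold change was -0.18 over the 38 genes and -0.01 over all genes, and 18 of the 38 had an unadjusted p under 0.05. All β-glucan libraries lay below all PBS libraries for 16 of the 38 genes (42.1%), against 10.3% of all genes lower without overlap and 8.68% higher.

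Pole (ENSMUSG00000007080, chromosome 5, 110286306 to 110337474 in mm10) had 34.6, 31.8 and 33.9 CPM in β-glucan libraries, against 47.6, 44.2, 48.2 and 52.9 CPM in PBS libraries. Every β-glucan library was lower than every PBS library. The log2 fold change was -0.53 ± 0.09 (adjusted p = 0.0063, edgeR). Pola1 (ENSMUSG00000006678, chromosome X, 93304767 to 93632155) had 45.7, 45.7 and 51.1 CPM in β-glucan libraries, against 61.9, 63.1, 63.6 and 61.0 CPM in PBS libraries. The groups were again apart, with a log2 fold change of -0.39 ± 0.08 (adjusted p = 0.0143, edgeR). Prim1, the primase subunit, and Pold1, the catalytic subunit of polymerase δ, were not called (-0.14 ± 0.08 and -0.22 ± 0.15).

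Rrm2 (ENSMUSG00000020649, chromosome 12, 24708241 to 24714146) had 762, 769 and 679.5 CPM in β-glucan libraries, against 1021, 944, 942 and 1005 CPM in PBS libraries. The groups did not overlap, and the log2 fold change was -0.41 ± 0.08 (adjusted p = 0.00968, edgeR). Its partner subunit Rrm1 (-0.21 ± 0.07, adjusted p = 0.12) and Tyms, thymidylate synthase (-0.21 ± 0.07, adjusted p = 0.108), had no overlap between groups either, but were not called by edgeR. Dut, the dUTPase that keeps uracil out of DNA, stood at -0.01 ± 0.13. In the licensing group 0 of 8 genes were called and 7 were negative, with Mcm4 nearest to the threshold (-0.31 ± 0.08, adjusted p = 0.0518, edgeR). Mcm2 had 191.5, 174.8 and 197.8 CPM in β-glucan libraries, against 264, 240, 192 and 225 CPM in PBS libraries, so the groups overlapped. Pcna, the clamp gene, had 131.8, 121.2 and 118.6 CPM in β-glucan libraries, against 137.6, 135.3, 140.5 and 146.4 CPM in PBS libraries. These groups did not overlap, and Pcna was not called by edgeR (-0.18 ± 0.07, adjusted p = 0.203). E2f1, which encodes an E2F factor, had 15.0, 17.0 and 13.7 CPM in β-glucan libraries, against 14.0, 15.3, 12.7 and 10.6 CPM in PBS libraries. It was 1 of 4 genes on the positive side, with Rfc5, Cdc45 and Cdt1.

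**Figure D1:**
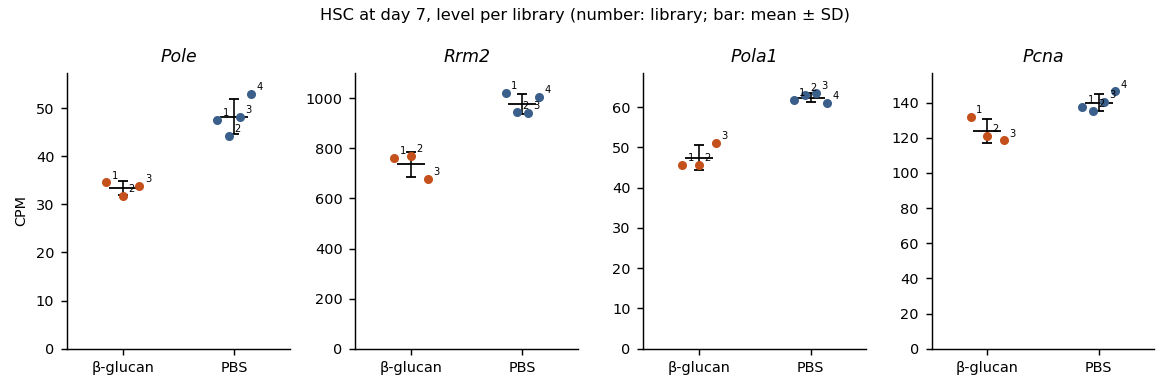
CPM (y axis, from 0) of Pole, Rrm2, Pola1 and Pcna in HSC at day 7 for 3 β-glucan libraries and 4 PBS libraries; points are libraries, numbers name them, and bars are mean ± SD. In all 4 genes every β-glucan library lies below every PBS library, with Pcna the closest.

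In cell cycle genes beyond the 38, 1 of 46 other replication genes fell at day 7, Dtl, an adaptor that marks CDT1 for destruction (-0.46 ± 0.07), and 0 rose (median -0.11). Of 22 G1/S regulators 2 fell, E2f4, a repressor E2F factor (-0.77 ± 0.16), and Cdkn1b, a CDK inhibitor (-0.38 ± 0.10). Of 20 mitosis genes 3 fell, with a median of -0.03. They were the proliferation antigen Mki67 (122 CPM in β-glucan mice, 198 CPM in PBS mice, -0.70 ± 0.10), Cenpf (-0.58 ± 0.12) and Cenpe (-0.37 ± 0.08), both kinetochore genes. Markers of other blood cells moved in the same libraries. Of 14 erythroid markers 12 were lower (2.26 to 3.18% of counts in β-glucan libraries, 6.79 to 8.24% in PBS libraries), and of 12 B lineage markers 11 were lower (0.121 to 0.166% and 0.231 to 0.254%). Of 11 mature neutrophil markers 7 were higher (7.59 to 10.99% and 5.32 to 6.04%), and of 7 granulocyte precursor markers 6 were higher (0.957 to 1.41% and 0.587 to 0.723%). None of these markers was at 0 throughout a group. Their part in the lower replication transcripts was not tested. With genes of erythroid, neutrophil and immunoglobulin lists left out of the scaling, 4 of the 38 genes were called lower, with a median of -0.19. Leaving out PBS library 3 gave 6 calls, and leaving out β-glucan library 2 or 3 gave 2. The share of all genes called in these refits is not given here. Pole was called in all 7 fits that left out 1 library.

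**Figure D2:**
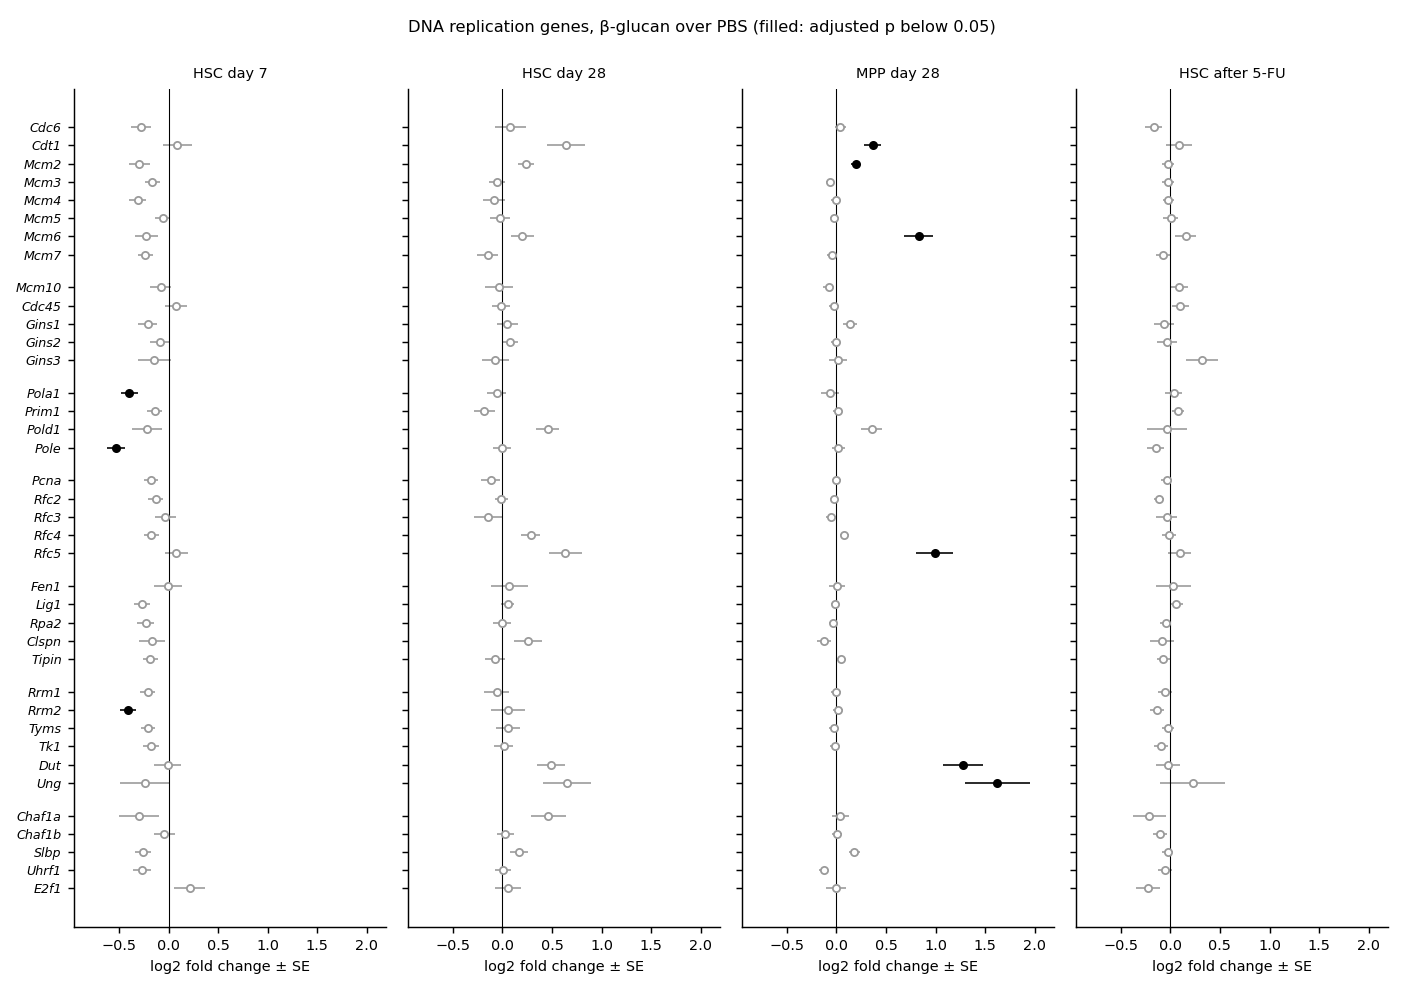
Log2 fold change ± SE of β-glucan over PBS (x axis) for the 38 genes (rows, in role groups) in HSC at day 7, HSC at day 28, MPP at day 28 and HSC after 5-FU; filled points passed an adjusted p of 0.05 by edgeR. The 3 filled points at day 7 lie left of 0 and the 6 in MPP lie right of it.

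At day 28, 0 of the 38 genes were called in HSC of β-glucan mice against HSC of PBS mice by edgeR, where 0.0374% of 16025 genes tested were called. There were 8 with an unadjusted p under 0.05. The DESeq2 Wald test called 4 and limma voom 2, all higher. The median log2 fold change was 0.04 over the 38 genes and -0.02 over all genes. The 3 smallest p belonged to Pold1, Rfc5 and Dut. Pold1 had 102.8, 112.4, 95.1 and 132.2 CPM in β-glucan libraries, against 92.6, 74.5, 69.6 and 83.7 CPM in PBS libraries (0.45 ± 0.12, adjusted p = 0.141, edgeR). Rfc5, a clamp loader subunit, had 35.3, 38.5, 46.6 and 64.8 CPM in β-glucan libraries, against 29.9, 33.5, 28.8 and 26.0 CPM in PBS libraries (0.64 ± 0.17, adjusted p = 0.141, edgeR). Dut had 85.8, 96.9, 123.3 and 130.9 CPM in β-glucan libraries, against 87.1, 79.8, 78.2 and 63.2 CPM in PBS libraries (0.49 ± 0.14, adjusted p = 0.149, edgeR). For Pold1 and Rfc5 the groups did not overlap, and for Dut the highest PBS library passed the lowest β-glucan library. Mcm2, the third gene without overlap, stood at 0.24 ± 0.08. All 3 were higher (7.89%), where 8.84% of all genes had no overlap, 4.31% higher and 4.52% lower.

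In the other 3 lists of cell cycle genes, 0 were called at day 28 in HSC, with medians of 0.06 for other replication genes, 0.16 for G1/S regulators and 0.00 for mitosis genes. Mki67 averaged 178 CPM in β-glucan mice and 139 CPM in PBS mice (0.35 ± 0.12, adjusted p = 0.183, edgeR). Without PBS library 2 the count over the 38 genes was 0 by edgeR and the median was 0.10, and without β-glucan library 3 they were 0 and 0.05. Over all genes these fits called 51 and 28. Without PBS library 2 and β-glucan library 3 together, an alternative chosen after seeing the data, 4 of the 38 were called, all higher. In that fit 669 of all genes were called, against 6 with all libraries.

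In MPP at day 28, 6 of the 38 genes were higher in β-glucan mice than in PBS mice. They were Dut, Ung, the glycosylase that removes uracil from DNA, the helicase genes Mcm6 and Mcm2, the licensing factor gene Cdt1 and Rfc5. By edgeR 6 of the 38 genes were called higher and 0 lower (15.8%), while over 15828 genes the share called was 4.63%, with 2.72% higher and 1.91% lower. The median of the 38 was 0.00, as over all genes, so most of the genes lay near 0. By role, 3 of 8 licensing genes, 1 of 5 clamp genes and 2 of 6 nucleotide genes rose, and 0 of 19 in the other 4 groups. Without overlap between groups, 8 of the 38 were higher and 1, Uhrf1, lower (23.7%), against 7.11% and 5.26% of all genes.

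Dut (ENSMUSG00000027203, chromosome 2, 125247190 to 125258608) had 80.6, 61.4, 122.8 and 136.8 CPM in β-glucan libraries, against 35.8, 43.6, 40.7 and 45.1 CPM in PBS libraries. Libraries 3 and 4 of the β-glucan group were the highest, and all 4 exceeded every PBS library. Those 2 libraries also held the fewest counts of the day 28 libraries, 25764775 and 24567232, and the part of depth was not tested. The log2 fold change was 1.28 ± 0.20 (adjusted p = 0.00826, edgeR). Ung (ENSMUSG00000029591, chromosome 5, 114130386 to 114139323) had 7.94, 5.14, 14.2 and 20.1 CPM in β-glucan libraries, against 3.45, 3.98, 3.97 and 3.89 CPM in PBS libraries. The PBS libraries were tight and the β-glucan libraries spread wide, without overlap (1.63 ± 0.33, adjusted p = 0.0193, edgeR). The other 4 genes of the nucleotide group, Rrm1, Rrm2, Tyms and Tk1, ranged from -0.03 to 0.01.

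Mcm6 (ENSMUSG00000026355, chromosome 1, 128331590 to 128359664), whose promoter with 5 E2F cores is printed above, had 360, 299, 480 and 524 CPM in β-glucan libraries, against 205, 240, 229 and 261 CPM in PBS libraries. The groups did not overlap, and libraries 3 and 4 were again the highest (0.83 ± 0.15, adjusted p = 0.0131, edgeR). Rfc5 (ENSMUSG00000029363, chromosome 5, 117378103 to 117389047) had 32.2, 28.5, 50.5 and 56.4 CPM in β-glucan libraries, against 19.9, 21.9, 19.2 and 22.9 CPM in PBS libraries. The same 2 libraries led, and all 4 were above the PBS group (0.99 ± 0.19, adjusted p = 0.0151, edgeR). Cdt1 (ENSMUSG00000006585, chromosome 8, 122568015 to 122573128) had 15.5, 16.8, 19.5 and 18.95 CPM in β-glucan libraries, against 14.1, 13.9, 13.4 and 13.4 CPM in PBS libraries (0.36 ± 0.08, adjusted p = 0.0314, edgeR). Mcm2 (ENSMUSG00000002870, chromosome 6, 88883475 to 88898780) averaged 243 ± 9.05 CPM in β-glucan libraries and 211 ± 5.52 CPM in PBS libraries (SD, n = 4 each; 0.20 ± 0.05, adjusted p = 0.0337, edgeR). Both had groups apart by a small margin. The other MCM subunit genes, Mcm3, Mcm4, Mcm5 and Mcm7, ranged from -0.07 to -0.01 and none of these 4 was called.

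**Figure D3:**
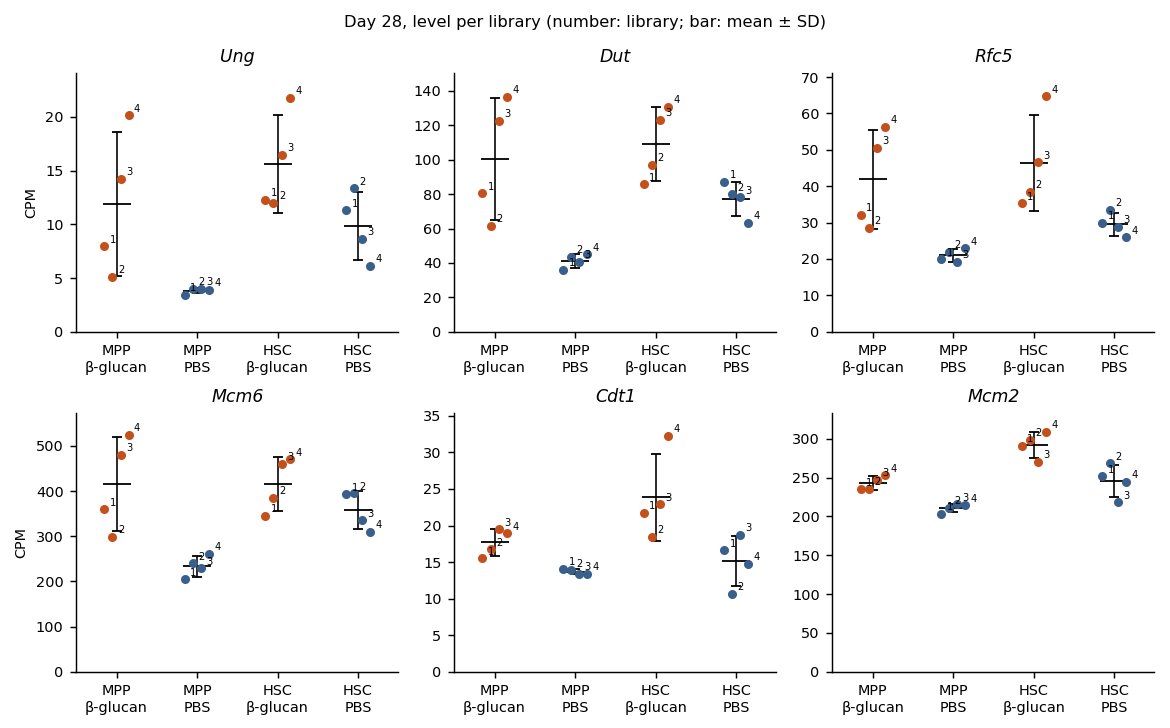
CPM (y axis, from 0) of the 6 genes called in MPP, in MPP and in HSC of β-glucan mice (orange) and PBS mice (blue) at day 28, with 4 libraries a group; numbers name the libraries and bars are mean ± SD. Libraries 3 and 4 are the upper 2 of the β-glucan libraries for Ung, Dut, Rfc5 and Mcm6 in MPP and in HSC, and PBS libraries of MPP are the lowest group for these 4 genes.

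Of the other lists, 0 of 46 other replication genes (median 0.07) and 0 of 20 mitosis genes (median -0.01) were called in MPP by edgeR. Mki67 averaged 203 CPM in β-glucan mice and 202 CPM in PBS mice (0.00 ± 0.08). Of 22 G1/S regulators 1 rose, Ccnd3, which encodes cyclin D3 (0.38 ± 0.09). Blood cell markers moved here too. Of 12 B lineage markers 10 were lower (0.306 to 0.405% of counts in β-glucan libraries, 0.347 to 0.431% in PBS libraries), and of 11 mature neutrophil markers 6 were lower (4.95 to 5.88% and 5.91 to 7.08%). Of 7 granulocyte precursor markers 5 were higher (1.18 to 1.22% and 0.960 to 1.03%). Of 8 T and NK markers 5 were lower, and of 9 monocyte and macrophage markers 1 was lower. Of 7 megakaryocyte markers tested 3 were higher. In the dendritic cell list 2 of 6 were higher, in the mast cell, basophil and eosinophil list 2 of 7, and in the stroma and endothelium list 2 of 8. Of 14 erythroid markers 1 was higher, the erythroid transcription factor gene Klf1 (48.6 CPM in β-glucan mice, 16.1 CPM in PBS mice, 1.59 ± 0.24), and the summed share was 12.8 to 16.4% in β-glucan libraries and 15.6 to 18.4% in PBS libraries. None of these markers was at 0 throughout a group, and their part in the higher replication transcripts was not tested. Leaving out 1 library moved the count between 2 and 8, and the share of all genes called in those fits is not given here. The count was 2 without PBS library 1, 2 or 3, 3 without PBS library 4 or β-glucan library 3, and 4 without β-glucan library 4. Mcm6 and Dut were called in all 8 of these fits, Rfc5 in 5, Ung in 3, and Cdt1 and Mcm2 in 2 each. With all 8 groups in 1 fit 4 genes were called, and Cdt1 (adjusted p = 0.320, edgeR) and Mcm2 (adjusted p = 0.227, edgeR) were lost.

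After 5-FU, 0 of the 38 genes were called in HSC of β-glucan mice against HSC of PBS mice, by edgeR, DESeq2 or limma voom, where edgeR called 0.0446% of 15705 genes tested, 0.0382% higher and 0.00637% lower. Only Rfc2, a clamp loader subunit, had an unadjusted p under 0.05. It had 124.1, 127.2, 126.7 and 132.0 CPM in β-glucan libraries, against 142.8, 133.1, 133.9 and 143.2 CPM in PBS libraries (-0.12 ± 0.05, adjusted p = 0.659, edgeR). Rfc2 was also the 1 gene of the 38 without overlap between groups (2.63%), where 4.61% of all genes had none, 2.41% higher and 2.2% lower. Next by p came Cdc6, which loads the helicase, with 74.6, 79.6, 74.6 and 66.0 CPM in β-glucan libraries, against 80.8, 92.9, 85.6 and 72.2 CPM in PBS libraries (-0.17 ± 0.08, adjusted p = 0.704, edgeR). Gins3, a GINS subunit, had 7.79, 8.08, 8.83 and 8.997 CPM in β-glucan libraries, against 6.10, 5.47, 9.23 and 6.21 CPM in PBS libraries (0.32 ± 0.16, adjusted p = 0.725, edgeR). Groups overlapped for both. Without PBS library 4 the count over the 38 was 0 by edgeR as well, with a median of -0.07, against -0.03 with it.

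Tyms, the target of 5-FU, averaged 130 ± 4.77 CPM in β-glucan mice and 132 ± 9.61 CPM in PBS mice (SD, n = 4 each; -0.02 ± 0.06). The nominal 95% interval of the log2 fold change of Dut ran from -0.27 to 0.21 in HSC after 5-FU and from 0.88 to 1.68 in MPP at day 28. Those settings differ in cell type, table and 5-FU, and the difference between them was not tested. The contrast with HSC at day 28, given below, was not called for Dut. In the other 3 cell cycle lists 0 genes were called, with medians of -0.03 for other replication genes and G1/S regulators and Mki67 at 0.05 ± 0.18. In this table Dut lay between 7.94 and 10.5 CPM, Rfc5 between 7.00 and 8.86 CPM and Mcm6 between 39.8 and 57.7 CPM, given beside the day 28 values with no comparison between tables.

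**Figure D4:**
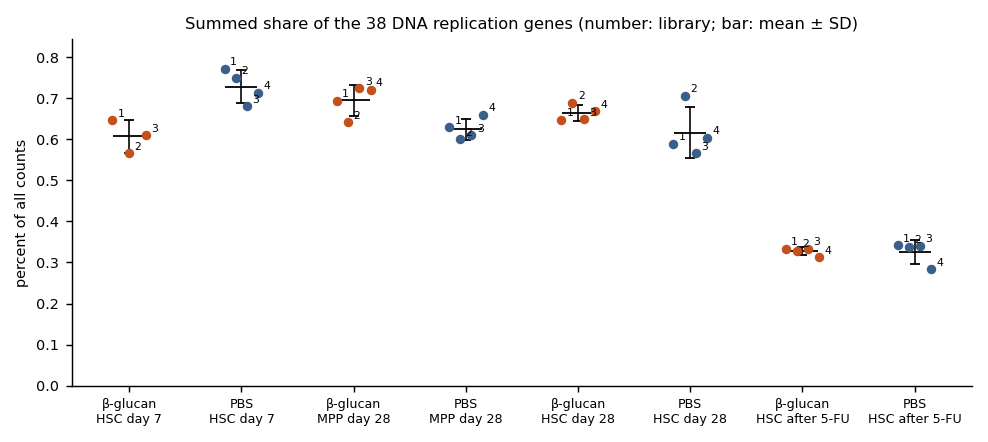
Summed share of the 38 genes in each library, in percent of all counts (y axis, from 0), for the 8 groups, β-glucan in orange and PBS in blue; bars are mean ± SD and numbers name libraries. At day 7 the β-glucan libraries lie below all PBS libraries, library 2 of PBS HSC at day 28 lies above its group at 0.706%, and the 5-FU libraries lie between 0.283 and 0.341%. Shares are not compared between tables.

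In MPP against HSC of PBS mice at day 28, Dut, Ung, Mcm6, Rfc5 and Mcm2 were lower in MPP and a few fork genes higher. By edgeR 3 of the 38 genes were higher and 5 lower (21.1%), while over 16122 genes the share called was 21.7%, with 9.58% higher and 12.1% lower. The share of the 38 was close to that of all genes. The log2 fold changes of the lower genes were Dut (-0.91 ± 0.10), Ung (-1.38 ± 0.21), Mcm6 (-0.63 ± 0.10), Rfc5 (-0.50 ± 0.10) and Mcm2 (-0.23 ± 0.07). The higher genes were Rfc2 (0.37 ± 0.06), Gins2, a GINS subunit (0.28 ± 0.07), and Clspn, a checkpoint mediator at forks (0.44 ± 0.13). The PBS libraries of MPP also serve as controls of the β-glucan comparison in MPP, so a low level there enters both. Dut had 35.8, 43.6, 40.7 and 45.1 CPM in MPP, against 87.1, 79.8, 78.2 and 63.2 CPM in HSC, and Ung had 3.45, 3.98, 3.97 and 3.89 CPM in MPP, against 11.3, 13.3, 8.65 and 6.14 CPM in HSC. Neither gene's groups overlapped. Mcm6 had 205, 240, 229 and 261 CPM in MPP, against 393, 395, 335 and 310 CPM in HSC. Rfc2 had 217.0, 213.3, 203.8 and 210.9 CPM in MPP, against 164.3, 169.6, 162.2 and 155.4 CPM in HSC. Rfc5 had 19.9, 21.9, 19.2 and 22.9 CPM in MPP, against 29.9, 33.5, 28.8 and 26.0 CPM in HSC. All 5 genes were apart in every library.

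Without overlap between groups, 4 of the 38 were higher and 6 lower (26.3%), against 26.5% of all genes, 13.3% higher and 13.2% lower. Without HSC library 2, 1 of those that stood apart, 22 of the 38 were called, 16 higher and 6 lower, and 5050 of all genes, against 3493 with it. Without MPP library 1 the count was 5. In this comparison Mki67 averaged 202 CPM in MPP and 139 CPM in HSC and rose (0.53 ± 0.07), as did Cenpe (0.55 ± 0.08) and Cenpf (0.26 ± 0.07), 3 of 20 mitosis genes. Of 46 other replication genes 5 were higher and 0 lower, such as Rfc1, the large clamp loader subunit (0.43 ± 0.07), and Nasp, a histone chaperone (0.29 ± 0.07). Of 22 G1/S regulators 2 were higher and 6 lower, and those of smallest p were Ccnd3 (-0.72 ± 0.07), Rbl2, an RB family gene (-0.86 ± 0.12), and E2f2 (-0.70 ± 0.10). The CDK inhibitor gene Cdkn1c had the lowest log2 fold change of the list, -1.76 ± 0.28, at a mean of 0.400 CPM in MPP and 1.34 CPM in HSC.

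In MPP against HSC of β-glucan mice at day 28, 8 of the 38 genes were higher and 4 lower by edgeR (31.6%), while over 15945 genes the share called was 35.6%, with 17.7% higher and 18% lower. Higher in MPP were the clamp loader genes Rfc2 and Rfc3, Prim1, Tipin (a fork protection gene), Mcm7, Rpa2 (a subunit of the single-strand binding protein), Gins2 and Gins1. Lower were Rrm2, Chaf1a (the large subunit of the histone chaperone CAF-1), Mcm2 and E2f1. Rfc2 had 204.8, 209.4, 209.4 and 211.4 CPM in MPP, against 164.7, 163.6, 166.1 and 156.6 CPM in HSC (0.36 ± 0.05, adjusted p = 0.000258, edgeR). Rfc3 had 38.9, 36.4, 36.3 and 37.8 CPM in MPP, against 28.8, 31.5, 30.3 and 29.4 CPM in HSC (0.32 ± 0.06, adjusted p = 0.00214, edgeR). Both were higher in every MPP library. Rrm2 had 997, 952, 915 and 881 CPM in MPP, against 1271, 1382, 1083 and 1237 CPM in HSC (-0.41 ± 0.08, adjusted p = 0.00227, edgeR). Chaf1a had 9.08, 8.74, 9.43 and 8.65 CPM in MPP, against 14.2, 11.5, 11.1 and 13.5 CPM in HSC (-0.48 ± 0.10, adjusted p = 0.00344, edgeR). Mcm2 had 235.0, 235.3, 247.6 and 253.1 CPM in MPP, against 291, 299, 270 and 309 CPM in HSC (-0.26 ± 0.06, adjusted p = 0.00602, edgeR). These 3 were lower in every MPP library.

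Without a block, Dut and Ung were not called here. Dut stood at -0.12 ± 0.23, Ung at -0.40 ± 0.36 and Mcm6 at 0.01 ± 0.17, with libraries 3 and 4 high in both cell types. In β-glucan mice same-numbered MPP and HSC libraries deviated together. With the replicate number as a block 18 of the 38 genes were called, 10 higher and 8 lower. Without the block 35.6% of all genes tested were already called. The share of all genes with the block is not given here, so the 18 calls are not read as particular to the 38 genes. The block added Cdc45 and Mcm3 to the higher genes, and Ung, Cdt1, Pold1 and Slbp, a histone mRNA binding protein gene, to the lower ones. Ung had 7.94, 5.14, 14.2 and 20.1 CPM in MPP, against 12.3, 12.0, 16.5 and 21.8 CPM in the HSC libraries of the same numbers. It was lower in MPP in all 4 pairs (-0.52 ± 0.16, adjusted p = 0.0227, edgeR with the block). Dut was not called with the block either (-0.17 ± 0.10, adjusted p = 0.214, edgeR). Without overlap, 8 of the 38 were higher and 4 lower (31.6%), against 16.9% of all genes in each direction. Leaving out MPP library 1 gave 7 genes. Mki67 averaged 203 CPM in MPP and 178 CPM in HSC (0.19 ± 0.13, adjusted p = 0.264, edgeR). Of 20 mitosis genes 3 were higher (Aurkb 0.19 ± 0.05, Top2a 0.21 ± 0.06 and Bub1 0.20 ± 0.07) and 2 lower, Cdc20 and Plk1. Of 46 other replication genes 16 were higher and 3 lower, and those of smallest p were Nasp (0.45 ± 0.06), Rfc1 (0.41 ± 0.06), Dctpp1 (0.63 ± 0.12) and Pole3 (0.30 ± 0.06). Of 22 G1/S regulators 3 were higher and 12 lower, and those of smallest p were E2f2 (-0.98 ± 0.08), Cdkn1b (-0.92 ± 0.10) and Ccna2, cyclin A2 (-0.59 ± 0.08).

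In both comparisons of MPP with HSC, markers of other cells differed between the sorts. Of 14 erythroid markers 12 were lower in MPP of β-glucan mice (12.8 to 16.4% of counts in MPP, 16.6 to 18.3% in HSC) and 9 in MPP of PBS mice (15.6 to 18.4% and 18.7 to 19.7%). Of 8 megakaryocyte markers tested in β-glucan mice 7 were lower, and of 7 tested in PBS mice 6. No marker of these lists was at 0 throughout a group, and their part in the differences of replication genes was not tested. Gins2 and Rfc2, higher in MPP in both, share 67.3% and 15.1% of their exon bases with genes of the other strand, Gse1 and Lat2. The libraries do not mark strand, so these reads cannot be told apart.

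**Figure D5:**
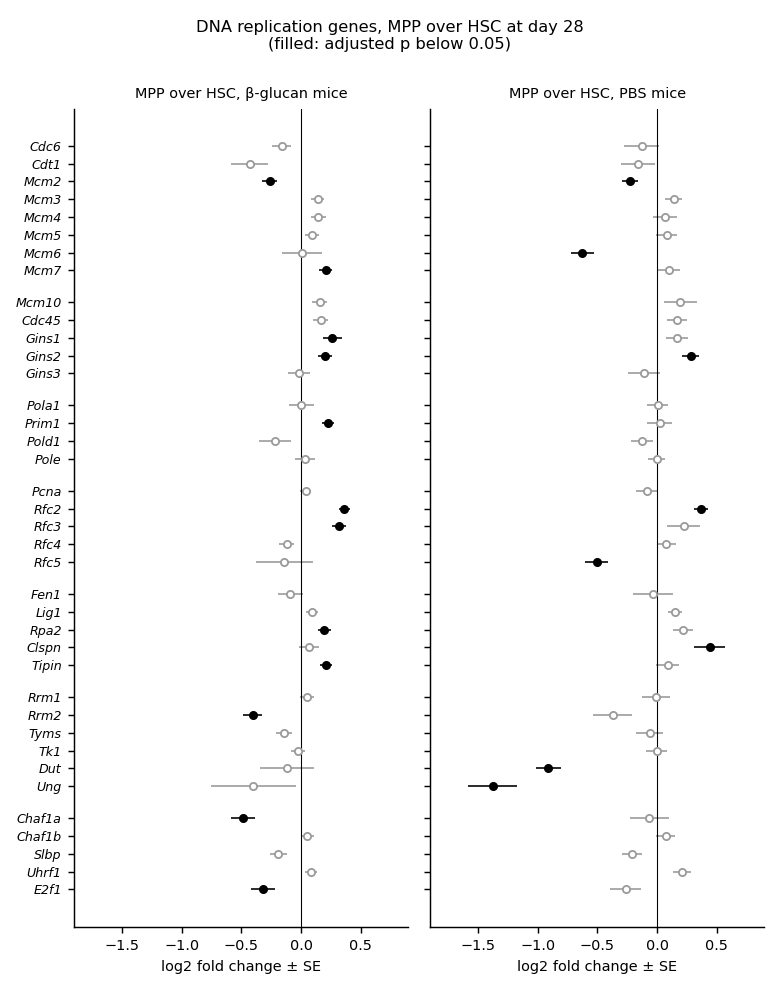
Log2 fold change ± SE of MPP over HSC at day 28 (x axis) for the 38 genes (rows, in role groups) in β-glucan mice (left) and in PBS mice (right); filled points passed an adjusted p of 0.05 by edgeR. Rfc2, Gins2 and Mcm2 are filled in both panels, and Dut, Ung, Mcm6 and Rfc5 are open in β-glucan mice and filled, left of 0, in PBS mice.

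Contrasts of 4 groups tested whether the β-glucan effects differed. For MPP minus HSC at day 28, 0 of the 38 genes were called by edgeR, DESeq2 or limma voom, where edgeR called 0.00599% of 16691 genes tested, and 5 had an unadjusted p under 0.05. Mcm6 was nearest, with 0.83 ± 0.15 in MPP and 0.20 ± 0.12 in HSC (difference 0.62 ± 0.21, adjusted p = 0.696, edgeR). Dut followed with 1.28 ± 0.20 in MPP and 0.49 ± 0.14 in HSC (0.78 ± 0.27, adjusted p = 0.707, edgeR), and Clspn with -0.13 ± 0.07 in MPP and 0.26 ± 0.14 in HSC (-0.39 ± 0.17, adjusted p = 0.798, edgeR). Ung and Rfc5 stood at 0.97 ± 0.45 and 0.35 ± 0.28. These fits did not pair MPP with HSC libraries, though same-numbered libraries of β-glucan mice deviated together, so spread shared by both cell types enters these SEs. A fit with a block by treatment and number, not planned beforehand, was also run. Its result is not given here. In such unpaired fits a gene called in MPP and not in HSC was not shown to differ between the cell types. Equal effects were not shown either.

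For HSC at day 28 minus day 7, 2 of the 38 genes were called, both higher (5.26%), while over 17977 genes the share called was 4.82%, with 2.24% higher and 2.58% lower. The median difference was 0.22 over the 38 genes and -0.02 over all genes, with 34 of 38 positive. Each day has its own count table, so day and table cannot be told apart in this contrast. Pole stood at -0.01 ± 0.09 at day 28 and -0.53 ± 0.09 at day 7 (difference 0.50 ± 0.12, adjusted p = 0.0275, edgeR). At day 28 it had 36.4, 30.3, 31.1 and 30.4 CPM in β-glucan libraries, against 31.8, 29.9, 34.4 and 31.7 CPM in PBS libraries. Mcm2 stood at 0.24 ± 0.08 at day 28 and -0.29 ± 0.10 at day 7 (difference 0.51 ± 0.14, adjusted p = 0.0412, edgeR). It had 291, 299, 270 and 309 CPM in β-glucan libraries at day 28, against 252, 268, 218 and 244 CPM in PBS libraries. Rfc4, a clamp loader gene, came next (0.43 ± 0.13, adjusted p = 0.0539, edgeR). At day 28 it had 132, 137, 113 and 124 CPM in β-glucan libraries, against 92.5, 120.5, 102 and 97.8 CPM in PBS libraries. The erythroid list had 11 of 14 markers higher and the neutrophil list 7 of 11 lower in the same contrast, and their part was not tested. Mki67 (1.03 ± 0.17), Cenpe (0.62 ± 0.12), Cenpf (0.63 ± 0.17), E2f4 (1.02 ± 0.20) and Ccna2 (0.75 ± 0.20) were higher too. Leaving out 1 library gave 0 to 6 calls over the 38 genes, given here without the share of all genes in those fits. It gave 6 without PBS library 2 of day 28 and 0 without day 7 PBS library 4, day 7 β-glucan library 2 or 3, day 28 PBS library 1 or 4, or day 28 β-glucan library 1.

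For HSC after 5-FU minus HSC at day 28, 0 of the 38 were called by edgeR, DESeq2 or limma voom, where edgeR called 0.106% of 16985 genes tested (0.053% higher and 0.053% lower), and 6 had an unadjusted p under 0.05. The median was -0.11. Dut (-0.54 ± 0.19, adjusted p = 0.307), Chaf1a (-0.69 ± 0.25, adjusted p = 0.31) and Mcm2 (-0.28 ± 0.10, adjusted p = 0.32) had the smallest p by edgeR. Chaf1a had 5.501, 5.53, 4.58 and 3.96 CPM in β-glucan libraries after 5-FU, against 6.33, 4.64, 6.52 and 5.22 CPM in PBS libraries. Mki67 stood at -0.32 ± 0.24. In this contrast 5-FU, sampling day and count table change together and cannot be told apart. Comparisons that hold the day 28 HSC share those libraries, so their results are not independent of each other.

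Over all 9 comparisons, 20 of the 38 genes were called at least once and 18 never. Some genes cannot be separated from overlapping genes or near copies. Fen1, the flap endonuclease gene, shares 78.8% of its exon bases with Gm10143 on the other strand, and Chaf1a, Rfc4 and Rfc5 share 18.7, 12.6 and 10.7% with Ubxn6, Eif4a2 and Wsb2. The 50-base words of each gene's longest transcript were also looked up in other genes, on both strands. Of these words 81.2% of Fen1, 70.3% of Gins2, 48.0% of Chaf1a, 34.2% of Mcm7 and 31.8% of Pcna occur in other genes. The shares were 0% for Dut, 0.0656% for Ung and 0.511% for Mcm6.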

How the data were processed

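Bone marrow HSC and MPP libraries (31, in 8 groups) were made with a kit that does not mark strand, per the labels' protocols. The authors deposited raw counts per gene in 3 tables on mm10, counted with featureCounts, with bcl2fastq 1.8.4 before it, per the submitters' processing notes. The aligner's name was not given in the sources used here. The library titled MPP, PBS, day 28, replicate 1 carries a cell type tag for HSC, and the title was followed. In the day 28 and 5-FU tables the column letters P and G were read as PBS and β-glucan, and each table's day was inferred from its columns.

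Gene symbols came from a GENCODE M21 table, which matched 45143 of 45706 identifiers (563 had none). Of 235 genes in the lists 234 matched, all but Azu1. Each comparison was fitted in R 4.3.3 with edgeR 4.0.16 (filterByExpr, minimum count 10, TMM, quasi-likelihood test) with only the compared groups in the fit, and calls were made at a Benjamini-Hochberg adjusted p under 0.05 over every gene tested. Every ± beside a log2 fold change is its SE, taken from the F statistic. The same steps were tested on simulated data. Depth was 19331663 to 39485556 counts (median 29751430), with 21717 to 23713 genes detected. Intervals are nominal 95% ones, the log2 fold change ± 1.96 SE, which runs narrow with few libraries, and cover the spread between libraries. No pair of libraries in a group agreed within sampling noise.

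All 38 genes may be named, and values per library are given for up to 5 called genes of smallest p in a comparison, or the 3 of smallest p where fewer than 3 were called, and for Pcna, Mcm2 and E2f1. In other lists up to 4 called genes are named. The 38 genes and all lists were chosen with earlier results of these data known. Alternatives were DESeq2 1.42.0 size factors and Wald test, limma 3.58.1 voom with quality weights, 420 blood cell genes left out of the scaling, no filter, a mean of at least 5 CPM, all 8 groups in 1 fit, a replicate block and 94 fits without 1 library. For the effect in MPP minus HSC a block by treatment and number was also fitted, not planned beforehand. For MPP against HSC in β-glucan mice, deviations of same-numbered libraries from their group means correlated at 0.198, 0.216, 0.322 and 0.311 across genes, so the numbers were taken as pairs. No other comparison had all such correlations above 0.1.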

Additional observations from a re-analysis of the deposited data

Results flagged for a closer look

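A library far from the 3 others of its group was looked for in 273 groups of 4 libraries, over single genes and the summed share, and 19 were found. Chance gives about 1 in 20, or 13.65. Of the 19, 4 were library 2 of HSC in PBS mice at day 28, where it was the highest for Mcm4 (342 CPM), Gins3 (18.04 CPM), Lig1 (177 CPM) and Rrm1 (722 CPM). Library 4 of HSC in PBS mice after 5-FU was the lowest for Pcna (133 CPM), Tipin (71.5 CPM) and the summed share of the 38 genes (0.283% of counts).

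In HSC of β-glucan mice at day 28, Mcm3 was highest in library 2 (421 CPM), Pole highest in library 1 (36.4 CPM) and Slbp lowest in library 1 (263 CPM). In MPP of β-glucan mice Clspn was lowest in library 4 (27.3 CPM). In MPP of PBS mice Cdc45 was highest in library 3 (88.0 CPM), Pcna highest in library 1 (228 CPM), Pold1 lowest in library 3 (65.9 CPM) and Ung lowest in library 1 (3.45 CPM). In HSC of β-glucan mice after 5-FU Pola1 was highest in library 1 (47.3 CPM), Rfc5 highest in library 4 (8.86 CPM) and E2f1 lowest in library 4 (8.89 CPM). In HSC of PBS mice at day 7 Mcm10 was lowest in library 4 (51.5 CPM).

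The effect of β-glucan in HSC differed between day 28 and day 7 for Pole (0.50) and Mcm2 (0.51), as log2 differences called by edgeR. Day and count table cannot be told apart there. Of 15 fits that left out 1 library, Pole was called in 9 and Mcm2 in 3. Both were lost with the replicate block, and Pole also with no filter.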

How the results depend on the processing

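At day 7 in HSC the count of replication genes called, 3, became 6 with the stricter filter, 9 with the DESeq2 Wald test, 11 with limma voom, 8 with all 8 groups in 1 fit and 1 with the replicate block, where Rrm2 and Pola1 were lost. All were lower. At day 28 in HSC the count of 0 became 2 with no filter, 4 with the DESeq2 Wald test, 2 with limma voom, 3 with all 8 groups and 4 without both PBS library 2 and β-glucan library 3, all higher. Over all genes the 6 calls there became 27 with blood cell genes out of the scaling, 182 with no filter, 589 with DESeq2, 598 with voom and 525 with all groups. For MPP against HSC in PBS mice the count of 8 became 15 with limma voom, 10 higher and 5 lower, and 12 with the stricter filter or all 8 groups. For the effect at day 28 minus day 7 the count of 2 became 4 with the stricter filter, 5 with DESeq2, 8 with voom, 6 with all 8 groups, 0 with the replicate block and 7 without the 2 libraries. Without those 2, the effect in MPP minus HSC had 1 call and the effect after 5-FU minus day 28 had 3, all lower. Leaving out 1 library gave 2 to 6 calls at day 7, 2 to 8 in MPP, 5 to 22 for MPP against HSC in PBS mice, 7 to 16 in β-glucan mice, 0 to 6 for day 28 minus day 7, and 0 in the other 4 comparisons. Rrm1 in MPP against HSC of PBS mice stood at 0.15 ± 0.05 (adjusted p = 0.032, edgeR) without HSC library 2, against -0.01 ± 0.12 with it and -0.0587 without HSC library 4, the lowest of these fits. The causes were not tested. Numbers were taken as pairs only where every same-numbered correlation was above 0.1. Between β-glucan and PBS libraries these were -0.115 to 0.013 at day 7, 0.166, 0.250, 0.232 and -0.0457 for day 28 stem cells, -0.0530, 0.0598, 0.203 and 0.158 for the MPP pairs, and -0.0861 to -0.0403 after 5-FU. So 3 of 4 in HSC at day 28 passed 0.1, and whether the numbers mark a shared batch there is not stated. Between MPP and HSC of PBS mice they were 0.160, 0.0464, 0.237 and 0.125, and these were left unpaired. In β-glucan mice some MPP and HSC libraries of unlike number also correlated, up to 0.212, so the pairing there is not certain. A call lost under the block is not read as a weaker effect, and a call gained only under it rests on that pairing.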

Other observations

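Genes whose levels ran most like those of Ung over the 16 libraries of day 28 were looked up after the values of Ung had been seen, among 9954 genes with a mean of at least 5 CPM, on log2 of CPM plus 0.5. The closest were Clta, which encodes a clathrin light chain (Pearson r 0.984), Arcn1, a coatomer gene (0.983), Rheb, a GTPase gene of the mTOR pathway (0.9802), Ddx28 (0.9796), Zcrb1 (0.979) and the histone gene Hist1h2ae (0.978). In all, 137 genes reached 0.9. Of the 38 replication genes, Dut (0.969), Mcm6 (0.960) and Rfc5 (0.941) were the closest, with 15, 33 and 64 genes more like Ung than they were. Slbp followed at 0.837, Mcm2 at 0.8294 and Pold1 at 0.775. The libraries share their groups and their table, so these are descriptions and carry no test.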
